A study of Mus musculus with 8 samples.

Results

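The genes described here are 38 members of the amino acid response that the transcription factor ATF4 drives, measured in mouse germ cells grown in culture and in germ cells taken from the embryo. They were picked by symbol out of the gene count table, and the list was selected on earlier results of the same table, both on the difference between the cell types and on the differences between replicates of the cultured cells. The table held 34 of the 38 among its 21950 genes. *Ddit3*, *Psph*, *Slc7a5* and *Wars* were not analysed here, and *Mars* was matched under its current symbol. Because the values themselves chose the members, all values of the members below are a description, and none of them carries a test.

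PGCLCs are primordial germ cell-like cells made from pluripotent stem cells, and PGCs are the embryonic precursors of eggs and sperm. The d6PGCLCs came from 1 female iPSC line (BVSC-iPSC) that reports Blimp1 with Venus and Stella with ECFP. They were taken 6 days after the epiblast-like stage, on day 8 of the culture. Their sorting protocol allowed a gate on both reporters or on SSEA1 and integrin β3. Which gate these pools had is not clear from the sources used here. The PGCs were sorted for SSEA1 and integrin β3 from E12.5 gonads of female C57BL/6J fetuses and pooled. Each group had 4 pools from independent experiments, each made into 1 library from polyadenylated RNA and sequenced from a single end. Culture, genetic background and developmental age all differed between the groups, the sorting gate may have differed too, and these cannot be told apart. Since these are bulk samples, fewer cells that express a gene and less RNA per cell cannot be told apart either.

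Each d6PGCLC library held 8054596 to 12024841 counted reads and each PGC library 7991437 to 11166023. Levels are given in CPM, counts scaled to a common library total with TMM. A library was taken to detect nothing below 3 counts, which were worth 0.249 to 0.383 CPM, a limit that covers counting error only. The 10 germ cell markers summed to between 3950 and 4550 CPM in d6PGCLCs and between 4510 and 5050 CPM in PGCs, but single markers differed between the groups, 5 of them called higher in d6PGCLCs and 3 lower. The lower ones were *Dazl* (log2 fold change -5.07), *Ddx4* (-4.42) and *Dnd1* (-0.59), and the higher ones *Prdm1* (1.21), *Prdm14* (0.93), *Dppa3* (0.85), *Pou5f1* (0.74) and *Tfap2c* (0.65), while *Nanos3* (-0.22) and *Kit* (0.19) were not called. The 9 epiblast, mesoderm and endoderm markers analysed summed to between 7.47 and 8.73 CPM in d6PGCLCs and between 20.4 and 25.6 CPM in PGCs. The 12 gonadal somatic markers analysed summed to at most 17.8 CPM in any library and the 4 blood markers to at most 3.06 CPM. Of these, *Wt1*, *Gata4*, *Emx2*, *Fst* and *Pdgfra* were called lower in d6PGCLCs, and the endothelial gene *Cdh5* (log2 fold change 1.39) and the macrophage gene *Csf1r* were called higher, *Csf1r* with 24, 20, 13 and 12 counts in d6PGCLC replicates 1 to 4 and 0 in every PGC library. A pool apart from the others was E12.5 PGC replicate 2, in which 15 genes of the response to cell dissociation had a median log2 deviation of 0.651 from the mean of the 4 PGC libraries. Another was E12.5 PGC replicate 4, in which 4 Y-linked genes had 53 counts in all, against 0 counts in every other library, although it is labelled female.

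When an amino acid runs short, uncharged tRNA activates the kinase GCN2, which phosphorylates the translation factor eIF2α. Heme shortage, double-stranded RNA and stress in the endoplasmic reticulum reach the same residue through the kinases HRI, PKR and PERK. General translation then falls while the *Atf4* mRNA, which carries upstream open reading frames, is translated better, so that ATF4 protein can rise without a rise of its mRNA. ATF4 binds as a dimer with C/EBP proteins to a composite C/EBP-ATF element and switches on genes for the import, synthesis and tRNA loading of amino acids. In the mouse, E12.5 is the time at which PGCs have settled in the gonad and undergo broad epigenetic reprogramming.

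The promoters of the members were searched for this element. The list is one of ATF4 target genes, several of which are known as targets through this element, so that its share among the members is a description and not independent of how they were picked. RefSeq windows (GRCm38.p6) of 300 bases, from 250 bases before to 50 bases after a start site, were searched for 28 of the 34 members analysed. The element was searched as TGATGNAA on both strands, where the opposite strand reads TTNCATCA. It was found in 10 of the 28 members (35.7%), beside 1219 of all 27025 genes with a window (4.51%). The narrower form TGATGCAA, which is contained in the first, was found in 6 members (21.4%), beside 279 of all genes (1.03%). The endoplasmic reticulum stress element (CCAAT and CCACG with 9 bases between them, both strands), a site of the ATF6 branch of the unfolded protein response, was in 0 of the 28 members and in 37 genes in all (0.137%). It was in 6 of the 15 windows of ATF6 and XBP1 branch genes, of which 0 had the C/EBP-ATF element. In other lists the C/EBP-ATF element was in 4 of 14 windows of further ATF4 targets (28.6%) and in 2 of 6 windows of other cytosolic tRNA synthetases (33.3%). It was in 2 of 13 windows of other amino acid transporters (15.4%), in 1 of 13 of dissociation response genes (7.69%) and in 1 of 11 of eIF2 genes (9.09%). All of these genes had the narrower form except the eIF2 gene. These lists share some genes, among them *Slc1a4*, *Slc1a5* and *Atf3*, so that a window can count more than once. The element was in 0 of 13 windows of mitochondrial tRNA synthetases and in 0 of 12 of other folate and methionine cycle enzymes. It was also in 0 of 10 windows of p53 and its targets and in 0 of 9 of NRF2 regulators and targets. These matches describe letters in a window, not a bound site.

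The matches with 12 bases to either side are shown so that the shared core can be compared between a gene of glutathione breakdown, a transporter, regulators and synthetases. Capitals mark the element, and each sequence runs 5′ to 3′ on the strand of the gene. The narrower form was found in these members:
*Chac1*, chr2:119351037-119351068, plus strand: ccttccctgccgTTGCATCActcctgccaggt
*Slc7a11*, chr3:50443660-50443691, minus strand: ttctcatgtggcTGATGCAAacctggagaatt
*Slc7a11*, chr3:50443641-50443672, minus strand: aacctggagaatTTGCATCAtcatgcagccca
*Nupr1*, chr7:126625561-126625592, minus strand: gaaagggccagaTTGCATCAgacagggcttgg
*Herpud1*, chr8:94386305-94386336, plus strand: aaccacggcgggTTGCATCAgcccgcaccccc
*Iars*, chr13:49682125-49682156, plus strand: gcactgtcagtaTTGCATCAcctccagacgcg
*Vldlr*, chr19:27216808-27216839, plus strand: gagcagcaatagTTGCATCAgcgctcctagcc
The following members had only the broader form:
*Trib3*, chr2:152344027-152344058, minus strand: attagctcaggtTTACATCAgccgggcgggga
*Asns*, chr6:7693213-7693244, minus strand: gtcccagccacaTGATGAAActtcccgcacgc
*Gars*, chr6:55037959-55037990, plus strand: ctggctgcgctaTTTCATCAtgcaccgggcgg
*Pck2*, chr14:55540151-55540182, plus strand: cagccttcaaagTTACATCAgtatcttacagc

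The first base of the element lay 112 bases before the start site in *Herpud1*, 110 bases before it in *Nupr1* and 103 bases before it in *Pck2*. It lay farther out in *Chac1* (193 bases) and in 1 of the windows of *Vldlr* (200 bases). In *Slc7a11* a pair of matches on opposite strands began 66 and 47 bases before the start. In *Asns* and *Gars* it began 23 and 30 bases before the start, and in *Trib3* and *Iars* it was inside the transcribed part, from base 15 and 8. The element did not go with 1 kind of member. A window with it belonged to members with large fold changes (*Nupr1*, *Chac1*) and to members that were not called (*Trib3*, *Herpud1*, *Gars*, *Iars*). *Slc7a11* also held it, but was at the limit of detection in PGCs, so that its lack of a call says little.

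**Figure D1:**
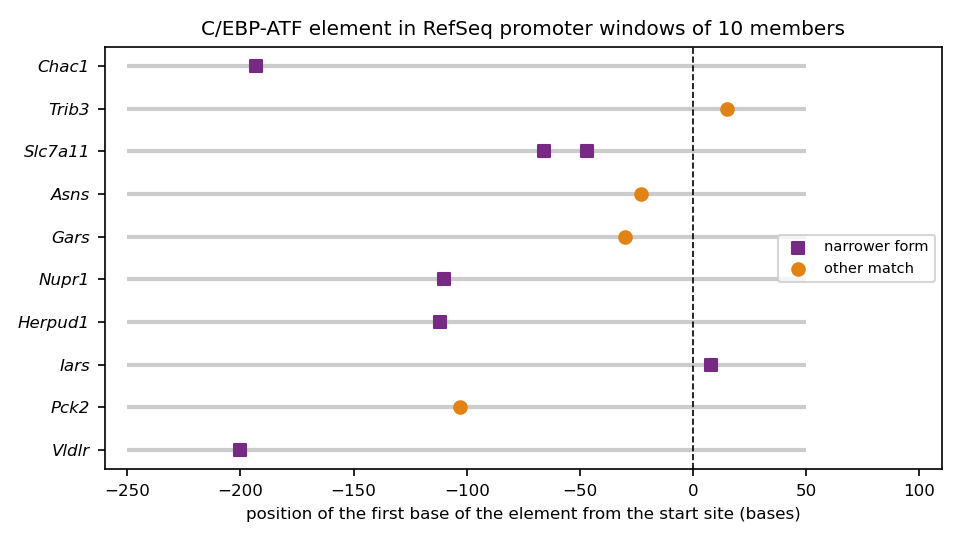
Position of the C/EBP-ATF element in the RefSeq promoter windows of the 10 members that hold it, in bases from the start site (dashed line), with each window as a grey bar. Squares are the narrower form and circles other matches of TGATGNAA, and the matches of *Nupr1*, *Herpud1* and *Pck2* lie from 112 to 103 bases before the start site.

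The whole windows of *Chac1* and *Asns* are shown to set a scarce gene with a large change beside an abundant gene with a smaller one. Capitals again mark the element.
*Chac1*, chr2:119350992-119351291, plus strand: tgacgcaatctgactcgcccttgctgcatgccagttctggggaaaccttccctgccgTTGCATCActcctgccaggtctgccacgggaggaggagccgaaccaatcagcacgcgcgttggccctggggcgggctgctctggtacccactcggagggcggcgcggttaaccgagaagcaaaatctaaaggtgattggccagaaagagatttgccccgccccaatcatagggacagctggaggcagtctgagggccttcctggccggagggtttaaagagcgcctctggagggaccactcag
*Asns*, chr6:7693160-7693459, minus strand: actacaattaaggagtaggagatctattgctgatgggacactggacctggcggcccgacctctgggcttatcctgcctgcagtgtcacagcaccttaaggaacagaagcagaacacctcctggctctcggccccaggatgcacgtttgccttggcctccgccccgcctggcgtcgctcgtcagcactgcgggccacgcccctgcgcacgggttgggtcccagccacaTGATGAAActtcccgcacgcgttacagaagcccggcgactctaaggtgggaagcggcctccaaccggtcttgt

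Between the cell types, 24 of the 34 members were called higher in d6PGCLCs, 0 were called lower and 10 were not called (edgeR's quasi-likelihood test over the whole table, adjusted p of at most 0.05). At an unadjusted p under 0.05 the count of lower members was also 0, and it was 0 with DESeq2. The number called higher was 23 without E12.5 PGC replicate 2 and 21 without E12.5 PGC replicate 4, the pools that stood apart. Over all genes tested, 16.1% were called higher. Among the 11487 genes with a mean of at least 1 CPM, which include 33 of the members, 28.1% were called higher and 25.6% lower. The median log2 fold change of the 34 members was 0.74, beside 0.01 over those 11487 genes, and it was also 0.74 with *Nupr1* and *Slc7a11*, which were at the limit of detection in PGCs, set to their bounds. Only 4 members, *Nupr1*, *Chac1*, *Stc2* and *Slc7a1*, were called and had a log2 fold change of 2 or more in size, which 7.24% of those genes reached. In 19 members every d6PGCLC library was above every PGC library, as in 27% of those genes. The members were selected on this contrast, so nothing is read from these shares.

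**Figure D2:**
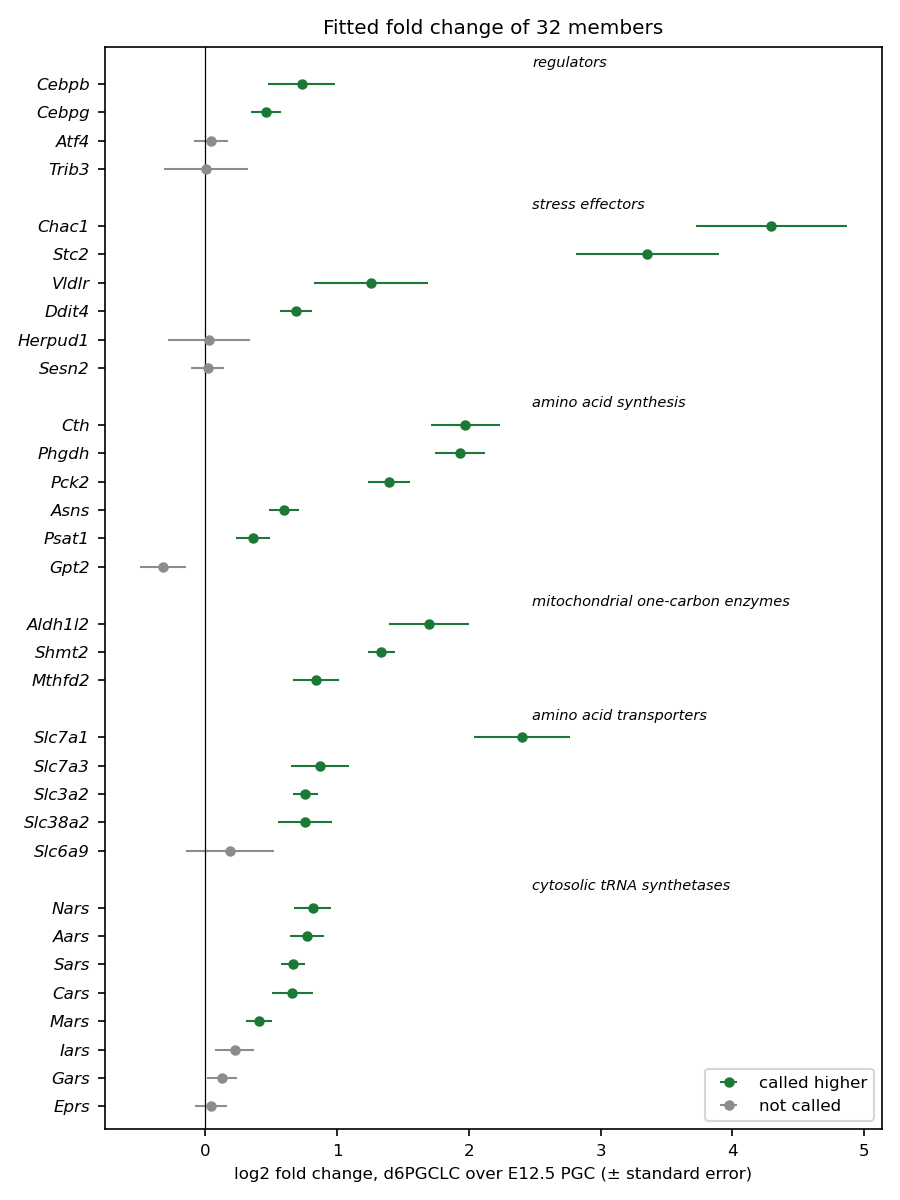
Fitted log2 fold change of d6PGCLCs over E12.5 PGCs with its standard error for 32 members, ordered by role and fold change, with 4 libraries in each group. The called members lie from 0.36 (*Psat1*) to 4.29 (*Chac1*) and the members not called from -0.32 (*Gpt2*) to 0.22 (*Iars*), while *Nupr1* and *Slc7a11*, at the limit of detection in PGCs, are left out.

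Of the 5 regulators analysed, 3 rose in d6PGCLCs, and *Atf4* itself was not among them. *Atf4* mRNA (Entrez 11911, chr15:80255184-80257545) was at 276.6, 255.7, 184.1 and 186.7 CPM in d6PGCLC replicates 1 to 4 and at 186.5, 264.1, 202.2 and 221.8 CPM in PGC replicates 1 to 4. The ranges of the groups overlapped almost wholly. Its log2 fold change was 0.05 (standard error 0.13) and was not called.

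*Trib3* encodes a pseudokinase that binds ATF4 and dampens its activity, and its mRNA is among the steepest readouts of the pathway. *Trib3* (Entrez 228775, chr2:152337425-152344060) was at 39.3, 23.5, 9.96 and 7.27 CPM in d6PGCLCs and at 21.6, 19.1, 18.7 and 19.9 CPM in PGCs. The 4 PGC libraries all lay inside the gap between d6PGCLC replicates 2 and 3, with 2 cultured pools above them and 2 below. The group means of 20.0 ± 14.7 and 19.8 ± 1.28 CPM (SD, n = 4) were nearly equal, giving a log2 fold change of 0.00 ± 0.32 (standard error), and the sign of this value turned under several settings.

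*Nupr1*, a small stress-induced chromatin protein, had a large fold change whose size could not be fixed. *Nupr1* (Entrez 56312, chr7:126623246-126625470) was at 8.04, 6.01, 1.74 and 1.46 CPM in d6PGCLCs and at 0, 0.211, 0 and 0 CPM in PGCs. The PGC libraries were at the limit of detection, against which (3 counts per library) the mean of the 4 d6PGCLC libraries was at least 13.9-fold higher. Of the C/EBP partners, *Cebpg* rose from 52.3 ± 4.38 to 71.8 ± 9.11 CPM (SD, n = 4; log2 fold change 0.46) with no overlap of the groups. *Cebpb* rose from 5.04 ± 1.84 to 8.23 ± 2.03 CPM (log2 fold change 0.73), but its groups overlapped. The call of *Cebpb* was lost without d6PGCLC replicate 3 or 4 (0.56 and 0.71) and without PGC replicate 3 or 4 (0.60 and 0.59).

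Among the 6 stress effectors, 4 rose, with *Chac1* and *Stc2* well ahead of the other two. CHAC1 degrades glutathione in the cytosol. *Chac1* (Entrez 69065, chr2:119351242-119354326) was at 17.0, 15.1, 5.31 and 3.52 CPM in d6PGCLCs and at 0.499, 0.211, 0.645 and 0.632 CPM in PGCs. The lowest cultured pool was well above the highest PGC pool, and the log2 fold change was 4.29 (standard error 0.57). *Stc2*, which encodes the secreted glycoprotein stanniocalcin 2, rose from 0.540 ± 0.346 to 5.42 ± 3.19 CPM (log2 fold change 3.35). *Ddit4* (REDD1), which restrains mTORC1, rose from 141.2 ± 10.9 to 227.0 ± 50.4 CPM (0.68). *Vldlr*, a lipoprotein receptor, was at 2.77 ± 1.36 against 1.16 ± 0.488 CPM (1.26), and its call was lost without d6PGCLC replicate 1 or 2 (1.09 and 1.01) or PGC replicate 3 or 4 (1.29 and 0.98).

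*Sesn2* and *Herpud1* were not called. SESN2 senses leucine and restrains mTORC1. *Sesn2* (Entrez 230784, chr4:132492804-132510456) was at 135.8, 109.6, 88.7 and 81.3 CPM in d6PGCLCs and at 97.6, 108.3, 97.6 and 106.8 CPM in PGCs. As with *Trib3*, d6PGCLC replicates 1 and 2 were above all PGC libraries and replicates 3 and 4 below them, and the log2 fold change was 0.02 (standard error 0.13). *Herpud1*, a component of endoplasmic reticulum-associated degradation, was at 15.2 ± 9.32 against 14.8 ± 4.32 CPM (0.03), with d6PGCLC libraries between 6.42 and 25.4 CPM.

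**Figure D3:**
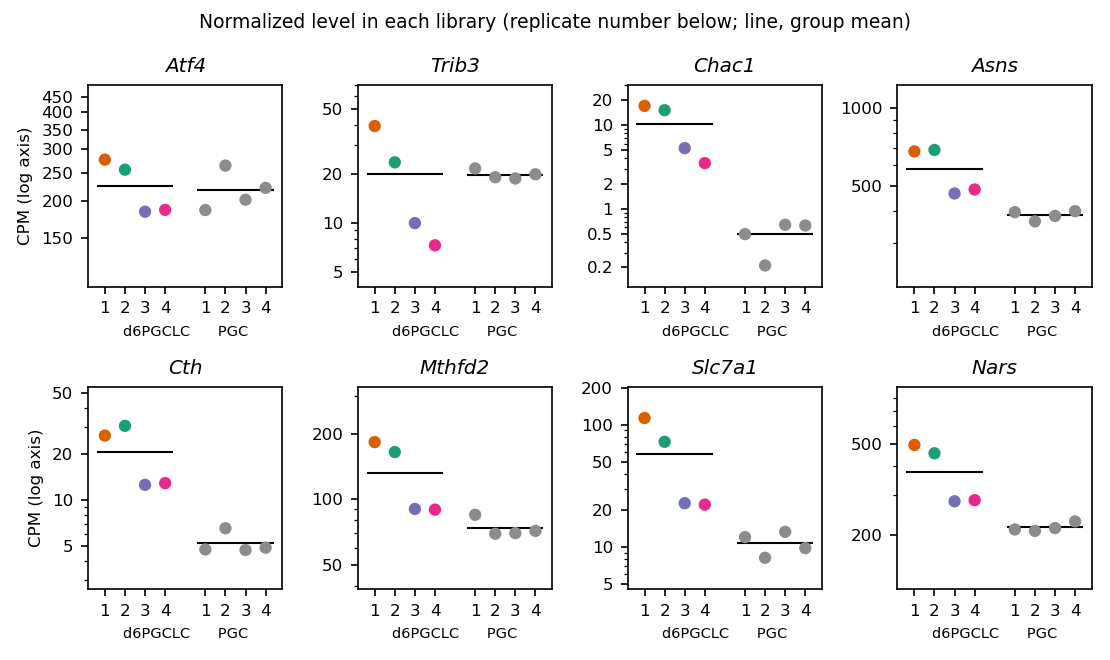
CPM (log axis, own scale in each panel) of 8 members in the 4 d6PGCLC libraries (coloured by replicate) and the 4 E12.5 PGC libraries (grey), with a line at each group mean. d6PGCLC replicates 1 and 2 are the upper d6PGCLC points in every panel, and for *Trib3* the PGC libraries at 18.7 to 21.6 CPM lie between them and replicates 3 and 4.

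Of the 6 enzymes of amino acid synthesis and its supply, 5 rose. CTH makes cysteine from cystathionine. *Cth* (Entrez 107869, chr3:157894248-157925081) was at 26.29, 30.44, 12.53 and 12.85 CPM in d6PGCLCs and at 4.74, 6.52, 4.70 and 4.87 CPM in PGCs, giving a log2 fold change of 1.97 ± 0.26 (standard error). All cultured pools lay above all PGC pools. ASNS makes asparagine and was the member with the highest level per length in both groups (240.8 RPKM in d6PGCLCs and 159.5 RPKM in PGCs). *Asns* (Entrez 27053, chr6:7675165-7693209) was at 679.9, 688.8, 466.1 and 483.3 CPM in d6PGCLCs and at 394.1, 362.9, 381.0 and 397.6 CPM in PGCs, giving a log2 fold change of 0.59 ± 0.11 (standard error) and no overlap.

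The serine pathway enzymes moved by different amounts. *Phgdh*, its first step, rose from 10.9 ± 2.06 to 41.9 ± 12.1 CPM (log2 fold change 1.93). *Psat1*, its second step, was at 385.0 ± 102 against 299.6 ± 19.6 CPM (0.36) with overlapping groups. The call of *Psat1* was lost with 7 other settings of the test or scaling and without any of d6PGCLC replicates 1 and 2 (0.30 and 0.20) and PGC replicates 2, 3 and 4 (0.34, 0.36 and 0.35). *Pck2*, the mitochondrial PEP carboxykinase, rose from 32.9 ± 0.861 to 86.7 ± 26.3 CPM (1.40).

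*Gpt2*, the mitochondrial alanine aminotransferase, was the only member with a fitted fold change below 0. *Gpt2* (Entrez 108682, chr8:85492576-85528902) was at 26.2, 20.5, 14.0 and 15.3 CPM in d6PGCLCs and at 24.8, 23.3, 24.4 and 22.1 CPM in PGCs. The first cultured pool was above all PGC pools and the other 3 were below them. Its log2 fold change of -0.32 (standard error 0.17) was not called, but it was called lower without d6PGCLC replicate 1, at -0.51.

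The 3 mitochondrial one-carbon enzymes, which load the carbon of serine onto folate and oxidize it there, rose, and none of the 3 had an overlap of the groups. *Aldh1l2* (Entrez 216188, chr10:83487447-83534146) was at 3.83, 4.28, 3.32 and 4.49 CPM in d6PGCLCs and at 1.25, 0.947, 1.11 and 1.53 CPM in PGCs, giving a log2 fold change of 1.70 ± 0.30 (standard error). *Mthfd2* (Entrez 17768, chr6:83305704-83326011) was at 183.8, 165.3, 90.4 and 89.7 CPM in d6PGCLCs and at 85.0, 69.5, 69.9 and 71.6 CPM in PGCs, giving a log2 fold change of 0.84 ± 0.18 (standard error). The cultured pools were within a narrow range for *Aldh1l2* and lay in a high and a low pair for *Mthfd2*. *Shmt2*, which splits serine to glycine, rose from 73.0 ± 3.87 to 184.5 ± 27.2 CPM (1.34).

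Of the 14 analysed enzymes of the folate and methionine cycles outside the list, 4 were higher and 4 lower (median log2 fold change 0.00). Over all genes with a mean of at least 1 CPM, 28.1% were higher and 25.6% lower. The mitochondrial formate synthase gene *Mthfd1l* was at 80.1 ± 7.78 against 43.4 ± 2.91 CPM (0.88). The cytosolic methionine synthase gene *Mtr* was at 178.7 ± 40.4 against 305.1 ± 44.7 CPM (-0.77), and the glycine cleavage gene *Gldc* at 506.6 ± 31.0 against 840.9 ± 63.7 CPM (-0.73).

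Of the 6 transporters analysed, 4 rose. *Slc7a1*, which encodes the arginine and lysine carrier CAT-1, had the highest fold change among them. *Slc7a1* (Entrez 11987, chr5:148327410-148399904) was at 113.5, 72.6, 22.9 and 22.3 CPM in d6PGCLCs and at 12.1, 8.21, 13.4 and 9.84 CPM in PGCs, giving a log2 fold change of 2.40 ± 0.36 (standard error). Every cultured pool was above every PGC pool, and the cultured pools were themselves 5.09-fold apart from highest to lowest. *Slc3a2*, the heavy chain that carries several SLC7 transporters to the membrane, rose from 245.0 ± 19.9 to 414.7 ± 47.8 CPM (0.76).

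*Slc7a3*, another carrier of cationic amino acids, rose from 7.80 ± 2.40 to 14.4 ± 3.71 CPM (log2 fold change 0.87), and *Slc38a2*, the neutral amino acid carrier SNAT2, from 7.37 ± 1.75 to 12.4 ± 2.52 CPM (0.75), both with overlapping groups. The isoform counted for *Slc38a2* was 919 bases long, so that its level may miss reads of other isoforms. The glycine carrier *Slc6a9* (Entrez 14664, chr4:117835258-117869305) was at 10.2, 6.01, 3.90 and 2.42 CPM in d6PGCLCs and at 7.11, 3.37, 3.69 and 5.60 CPM in PGCs. The groups overlapped, and its log2 fold change of 0.18 (standard error 0.34) was not called. The cystine importer *Slc7a11* (Entrez 26570, chr3:50364936-50499087) was at 0.638, 0.611, 0.249 and 0.606 CPM in d6PGCLCs and at 0.374, 0.316, 0.0922 and 0 CPM in PGCs. It was at or near the limit of detection in both cell types and was not called.

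Of the 8 cytosolic tRNA synthetases analysed, which load tRNAs with their amino acids, 5 rose by between 0.41 and 0.81 on the log2 scale and 3 were not called. *Nars* (asparagine, Entrez 70223) was at 496.2, 456.0, 280.7 and 283.9 CPM in d6PGCLCs and at 211.2, 208.1, 214.2 and 229.1 CPM in PGCs, giving a log2 fold change of 0.81 ± 0.14 (standard error) and no overlap. *Aars* (alanine) rose from 325.8 ± 12.1 to 557.3 ± 148 CPM (0.77), *Sars* (serine) from 321.6 ± 25.3 to 509.8 ± 46.1 CPM (0.66), *Cars* (cysteine) from 117.8 ± 5.96 to 186.5 ± 63.0 CPM (0.66) and *Mars* (methionine) from 300.8 ± 13.9 to 399.3 ± 58.7 CPM (0.41). In the GENCODE annotation exons of *Ddit3* overlap those of *Mars* on the opposite strand, and other genes overlap exons of *Cebpb*, *Cebpg*, *Pck2*, *Shmt2*, *Aldh1l2*, *Slc6a9*, *Cars* and *Aars*. Whether reads were counted by strand is not given in the sources used here, so the counts of these members are uncertain.

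The 3 synthetases that were not called had overlapping groups. *Eprs* (glutamate and proline, Entrez 107508, chr1:185361417-185428360) was at 735.7, 549.8, 482.3 and 484.5 CPM in d6PGCLCs and at 625.5, 457.7, 559.2 and 542.4 CPM in PGCs, giving a log2 fold change of 0.04 ± 0.12 (standard error). *Gars* (glycine) was at 501.4 ± 107 against 458.7 ± 20.8 CPM (0.13) and *Iars* (isoleucine) at 417.4 ± 137 against 357.8 ± 38.3 CPM (0.22). Of the 9 cytosolic synthetases outside the list that were analysed, 2 were higher, *Qars* (0.92) and *Yars* (0.80), and 1 was lower, *Farsb* (-0.25), with a median of 0.10. Of the 14 mitochondrial synthetases analysed, 2 were higher and 3 lower, with a median of -0.11. The shares over all genes with a mean of at least 1 CPM were 28.1% higher and 25.6% lower. *Cars2*, the mitochondrial counterpart of *Cars*, was at 28.3 ± 5.52 against 61.0 ± 2.86 CPM (-1.11).

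Within the d6PGCLC group the members varied together, and this pattern was part of what selected the list. d6PGCLC replicates 1 and 2 were the highest pair in 30 of the 33 members with a mean of at least 1 CPM (90.9%), beside 2669 of the 11487 genes at that level (23.2%). The exceptions were *Cebpb* and *Slc38a2*, for which replicates 3 and 4 were highest, and *Aldh1l2*, for which replicates 2 and 4 were. The highest library was replicate 1 in 23 members and replicate 2 in 7, and the lowest was replicate 3 in 14 and replicate 4 in 17. Among the PGC libraries no pair was the highest in more than 9 of the 33 members.

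The median log2 deviation of the 33 members from the mean of the 4 d6PGCLC libraries was 0.43 in replicate 1, 0.25 in replicate 2, -0.31 in replicate 3 and -0.32 in replicate 4. Over all genes at that level no d6PGCLC library deviated by more than 0.009, but the scaling itself holds this median near 0. The PGC libraries deviated by between -0.034 and 0.046 for the same members. In the 25 members with a mean of at least 10 CPM the highest library was a median of 1.71-fold above the lowest in d6PGCLCs and 1.18-fold in PGCs, beside 1.31-fold and 1.22-fold over the 8192 genes at that level. The widest ranges of the d6PGCLC libraries were in *Nupr1* (5.53-fold), *Trib3* (5.41-fold), *Slc7a1* (5.09-fold), *Chac1* (4.83-fold) and *Slc6a9* (4.21-fold), and the narrowest in *Sars* (1.22-fold) and *Slc3a2* (1.27-fold).

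The distance to the PGC libraries also differed between the cultured pools. d6PGCLC replicate 1 was above all 4 PGC libraries in 33 of the 33 members and replicate 2 in 27. Replicates 3 and 4 were each above all PGC libraries in 22 members and below all of them in 6. Over all 11487 genes a d6PGCLC library was above all PGC libraries in 39.2% to 40.8% of genes. Relative to the PGC mean, the median member was 0.98 higher on the log2 scale in replicate 1, 0.84 in replicate 2, 0.39 in replicate 3 and 0.40 in replicate 4.

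**Figure D4:**
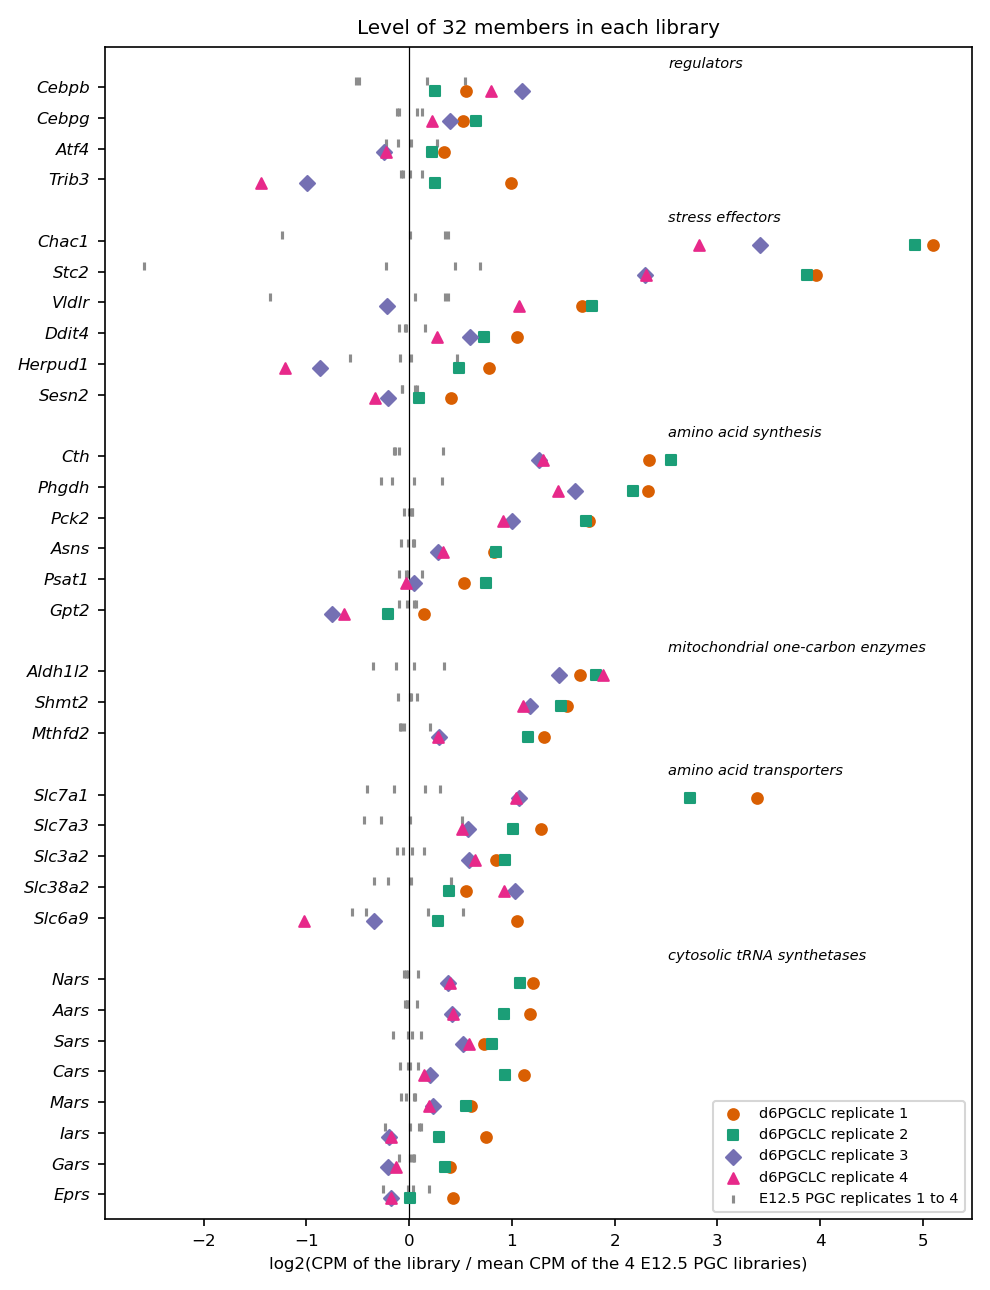
Level of 32 members in each library as log2 of its CPM over the mean of the 4 E12.5 PGC libraries, by role, with the 4 d6PGCLC replicates as coloured symbols and the PGC libraries as grey ticks. d6PGCLC replicates 1 and 2 lie to the right of replicates 3 and 4 in most members, except *Cebpb*, *Slc38a2* and *Aldh1l2*, and *Nupr1* and *Slc7a11* are left out for their counts at the limit of detection in PGCs.

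Among the d6PGCLC pools, replicates 1 and 4 had the fewest counted reads (8054596 and 8275874), and the slope of a library's deviation on log10 exonic length was 0.157, -0.334, -0.148 and -0.002 in replicates 1 to 4. Of the 10 germ cell markers, counted after the values were known, replicates 1 and 2 were the highest pair in 3 (*Dazl*, *Ddx4* and *Dnd1*) and replicates 3 and 4 in 5 (*Prdm1*, *Prdm14*, *Tfap2c*, *Kit* and *Nanos3*), and their sum was lowest in replicate 1. The widest of these was *Dazl*, which was at 50.5, 63.9, 17.8 and 18.6 CPM in d6PGCLC replicates 1 to 4, while PGCs had between 1018 and 1580 CPM. Among the gonadal somatic markers, which summed to 7.79, 10.3, 11.9 and 17.8 CPM, *Cdh5* made up 6.64, 9.57, 11.2 and 16.5 CPM. The blood markers summed to 3.06, 2.14, 1.08 and 1.45 CPM. The part of any of these in the pattern was not tested.

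Other genes of the same pathway were examined on lists drawn up by role, which share some genes. *Ppp1r15a*, *Mthfd1l*, *Slc1a4* and *Slc1a5* count both as further ATF4 targets and in 1 other list, and *Atf3* also as a dissociation response gene. Of 16 further ATF4 targets analysed, 11 were higher in d6PGCLCs and 1 was lower (median log2 fold change 0.85). Over all genes with a mean of at least 1 CPM, 28.1% were higher and 25.6% lower. The glutamine carrier gene *Slc1a5* was at 98.9 ± 19.0 against 17.1 ± 4.66 CPM (2.53). The proline synthesis genes *Pycr1* and *Aldh18a1* were at 74.9 ± 37.1 against 16.3 ± 1.28 CPM (2.20) and at 86.9 ± 42.4 against 24.7 ± 0.670 CPM (1.81), and the branched-chain aminotransferase gene *Bcat1* at 85.4 ± 22.6 against 33.3 ± 2.12 CPM (1.36). The lower gene was *Atf3*, at 0.638, 0.611, 0.0830 and 0.364 CPM in d6PGCLCs and at 2.50, 8.84, 1.66 and 0.542 CPM in PGCs. The d6PGCLC libraries held 5, 6, 1 and 3 counts of it, near the limit of detection, so the size of its change is not fixed. The groups overlapped, and the PGC mean rested on replicate 2, the pool that stood apart in dissociation response genes. d6PGCLC replicates 1 and 2 were the highest pair in 13 of the 16 genes, beside 23.2% of all genes at that level.

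Upstream, 14 genes of eIF2 and its regulation were analysed, of which 7 were higher and 0 lower (median log2 fold change 0.16). At an unadjusted p under 0.05 and with DESeq2 also 0 were lower. Of all genes with a mean of at least 1 CPM, 28.1% were higher and 25.6% lower. *Eif2ak2*, which encodes PKR, was at 26.9 ± 1.14 against 10.3 ± 1.38 CPM (1.39). *Impact*, an inhibitor of GCN2, was at 124.4 ± 22.1 against 66.6 ± 2.98 CPM (0.90), the eIF2β gene *Eif2s2* at 395.3 ± 68.8 against 201.3 ± 16.7 CPM (0.97) and the phosphatase subunit gene *Ppp1r15b* at 441.9 ± 16.8 against 279.6 ± 7.66 CPM (0.66). The kinase genes *Eif2ak1* (-0.10), *Eif2ak3* (-0.11) and *Eif2ak4* (-0.06), which encode HRI, PERK and GCN2, were not called. Replicates 1 and 2 were the highest pair in 3 of these 14 genes, beside 23.2% of all genes at that level.

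The other branches of the unfolded protein response, which ATF6 and XBP1 drive, had more lower than higher genes. Of 18 genes analysed, 8 were lower and 3 higher in d6PGCLCs (median log2 fold change -0.24). Among all genes with a mean of at least 1 CPM, 28.1% were higher and 25.6% lower. The lower genes included the sensor *Ern1* (-0.86) and the chaperone gene *Dnajb9* (-0.71), and the higher ones the transcription factors *Xbp1* (1.55) and *Atf6* (0.91). Replicates 1 and 2 were the highest pair in 6 of the 18, beside 23.2% of all genes at that level. Of 18 further amino acid transporters analysed, 6 were higher and 3 lower (median 0.32), beside the same 28.1% and 25.6% over all genes. Replicates 1 and 2 were the highest pair in 4 of the 16 with a mean of at least 1 CPM. Of these 4, *Slc1a4* and *Slc1a5* were already counted among the further ATF4 targets, as was *Slc1a5* among the 6 higher genes. Replicates 3 and 4 were the highest pair in 10 of the 16 transporters (62.5%), beside 22.6% of all genes at that level. Among the transporters the system N carrier gene *Slc38a3* was at 61.5 ± 16.1 against 10.2 ± 1.91 CPM (2.59) and the taurine carrier gene *Slc6a6* at 51.7 ± 9.11 against 13.8 ± 0.980 CPM (1.90).

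**Figure D5:**
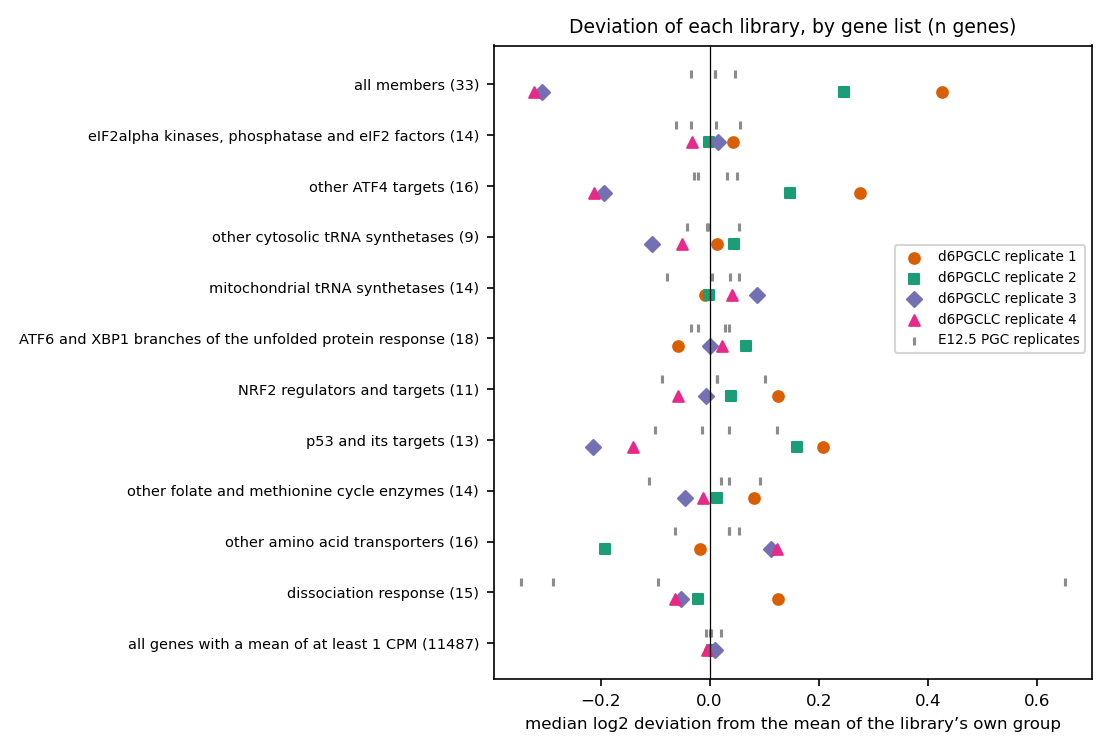
Median log2 deviation of each library from the mean of its own group for the members, for lists of related genes and for all genes with a mean of at least 1 CPM (number of genes in brackets), with d6PGCLC replicates as coloured symbols and E12.5 PGC libraries as grey ticks. The 4 d6PGCLC libraries spread from -0.32 to 0.43 for the members and from -0.21 to 0.28 for the further ATF4 targets. For p53 and its targets they spread from -0.21 to 0.21, also with replicates 1 and 2 above replicates 3 and 4. For all genes they lie between -0.004 and 0.009, a median that the scaling holds near 0.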

How the data were processed

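The authors used STAR to align reads to GRCm38 plus the ERCC spike-ins and counted uniquely mapped reads with QuasR on the exons of a randomly chosen UCSC isoform per gene, removing genes with overlapping promoters at random. They deposited raw counts, with the exonic length of each isoform. Whether counting used strand is not given in the sources used here, so genes with antisense partners are uncertain, and near-identical paralogs lose reads.

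All 8 count columns were used. Entrez identifiers were matched to RefSeq symbols for 21907 of 21950 rows. The members, their roles, the gene lists and the rule for naming genes were chosen with earlier results of these data known. All 38 members are named, with every library's value for the members of highest and lowest fold change in each role and for *Atf4*, *Trib3*, *Asns*, *Chac1* and *Slc7a11*, the rest by mean and SD. From each list at most 4 called genes with the largest change and a mean of at least 10 CPM are named, and others were chosen after their values were seen.

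Counts of all genes were fitted in R 4.3.3 with edgeR 4.0.16 (TMM, glmQLFit and glmQLFTest, prior count 0.125, no filter, cell type as the only term) with Benjamini-Hochberg adjustment, called at 0.05. The steps were tested on simulated data. RPKM were computed from CPM and exonic length. The alternatives tried were DESeq2 1.42.0, the likelihood ratio test, other scalings and filters, a prior count of 2, a replicate block, a length offset (loess, span 0.5) and leaving out each library. No pair of replicates agreed within sampling noise (the chi-square per degree of freedom was 3.21 to 20.9). Promoter windows came from RefSeq (GRCm38.p6). *Slc7a3*, *Cars*, *Aldh1l2*, *Nars* and *Cth* had no entry, and the promoter of 1 more member is not reported here.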

Additional observations from a re-analysis of the deposited data

Results flagged for a closer look

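Each of 34 members was examined in both groups for a library far from the other 3, by the gap to its nearest neighbour over the range of the 4 values. Of 68 sets of 4 libraries 5 stood out. Chance alone flags about 1 in 20 sets that are independent and not selected, which these are not, since the members vary together and were selected in part on the d6PGCLC replicates. *Nupr1* in E12.5 PGC replicate 2 was at 0.21 CPM (2 counts, below the limit of detection) while the other PGC libraries were at 0. By this rule any value beside 3 zeros stands out, so this flag carries no information. *Cth* in E12.5 PGC replicate 2 was at 6.52 CPM, against 4.70 to 4.87 CPM in the others. In E12.5 PGC replicate 1, *Mthfd2* was at 85.0 CPM, against 69.5 to 71.6 CPM, and *Aars* at 344 CPM, against 317.6 to 321.2 CPM. *Slc7a11* in d6PGCLC replicate 3 was at 0.249 CPM, against 0.606 to 0.638 CPM in the other d6PGCLC libraries, all near the limit of detection.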

How the results depend on the processing

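The number of members called higher was between 21 and 24 under the alternatives run, leaving out each library included (21 to 24). The number called lower was 0 in all of them except without d6PGCLC replicate 1, where *Gpt2* made it 1 (range 0 to 1 with each library left out). No scaling, test or filter moved the median of all genes by more than 0.08 on the log2 scale. *Psat1* was lost with the likelihood ratio test, DESeq2, library size alone, the upper quartile, either filter and the length offset, and *Cebpb* with the length offset. With the replicate block 24 members were called higher and 0 lower, with 7270 calls over all genes against 6919 without it. Same-numbered libraries of the groups had correlations of 0.273, 0.104, -0.023 and 0.035 between their deviations, not every library correlated best with its own number, and the labels tie no numbers together. d6PGCLC replicates 1 and 2 were the highest pair in 30 of 33 members with library size alone. The narrower promoter element was in 6 members, the broader in 10.

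Members near 0 changed sign. *Trib3* was at -0.039 with library size alone, -0.006 with DESeq2 size factors, -0.034 with the upper quartile, -0.008 and -0.01 with the CPM filter and filterByExpr, -0.23 with the replicate block and -0.12 with the length offset, and between -0.54 and 0.28 with a library left out. *Sesn2* was at -0.023 with library size alone, -0.022 with the upper quartile, -0.009 with the block and -0.065 with the length offset (-0.14 to 0.12 with a library left out). *Herpud1* was at -0.021 with library size alone, -0.015 with the upper quartile, -0.12 with the block and -0.10 with the length offset (-0.33 to 0.27). *Atf4* was at -0.062 with the length offset (-0.067 to 0.15). With a library left out, *Slc6a9* was between -0.24 and 0.43, *Eprs* between -0.11 and 0.12 and *Iars* between -0.009 and 0.34. The cause was not tested. Depth limits *Nupr1* and *Slc7a11*, whose fitted fold changes depend on the prior count. The fitted value of *Nupr1* was 4.11 with a prior count of 2 and 8.37 without E12.5 PGC replicate 2.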

Other observations

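Lists drawn up by role for p53, NRF2 and the response to cell dissociation were also read. Whether ATF4 acts on their genes was not tested, and *Atf3* also counts as a further ATF4 target. Of 13 genes of p53 and its targets, 12 were higher in d6PGCLCs and 0 lower (edgeR's quasi-likelihood test, also 0 lower at an unadjusted p under 0.05 and with DESeq2), beside 28.1% higher and 25.6% lower over all genes with a mean of at least 1 CPM, with a median log2 fold change of 0.58. *Pmaip1*, which encodes the pro-apoptotic protein NOXA, was at 91.4, 52.4, 26.2 and 26.7 CPM in d6PGCLC replicates 1 to 4 and at 4.74, 7.79, 4.89 and 5.87 CPM in PGCs (3.07). The RNA-binding protein gene *Zmat3* was at 160.4 ± 44.4 against 63.2 ± 3.98 CPM (1.34) and the receptor gene *Eda2r* at 71.3 ± 9.16 against 31.2 ± 2.31 CPM (1.19). d6PGCLC replicates 1 and 2 were the highest pair in 10 of the 13, beside 23.2% of all genes at that level.

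Of 12 regulators and targets of the oxidative stress factor NRF2, 4 were higher and 3 lower in d6PGCLCs (median log2 fold change 0.26). Over all genes with a mean of at least 1 CPM, 28.1% were higher and 25.6% lower. *Srxn1* was at 20.9 ± 4.48 against 8.89 ± 0.916 CPM (1.23), and *Gclm*, a subunit of the first enzyme of glutathione synthesis, at 82.7 ± 14.9 against 125.4 ± 10.1 CPM (-0.60). Replicates 1 and 2 were the highest pair in 6 of the 11 with a mean of at least 1 CPM, beside 23.2% of all genes at that level. Of 15 dissociation response genes, 3 were higher and 8 lower (median -0.48), with *Hspa1a* at 144 CPM in E12.5 PGC replicate 2 and at most 20.3 CPM in the other PGC libraries.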
